A study of Homo sapiens with 8 samples.

Results

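The transcripts of the constitutive proteasome subunits were examined in TeloHAEC, a human aortic endothelial cell line immortalised with telomerase. The members were the rows of the deposited gene table whose symbol is PSM, then A, B, C or D, then digits only, leaving out PSMB8, PSMB9 and PSMB10. This gave 36 genes of 34415, namely 16 of the core (8 PSMA and 8 PSMB) and 20 of the cap (6 PSMC and 14 PSMD). Total RNA was sequenced from 4 libraries of cells given estradiol and palmitic acid and from 4 control libraries given palmitic acid alone, as the sample titles name them. All 8 libraries carry the genotype label WT, and by the titles and the design text palmitic acid, a saturated fatty acid, was in the medium of both groups to mimic conditions that favour atherosclerosis. The treatment field differs from this: it names only palmitic acid for the estradiol samples and reads Control for the control samples, so that field alone would set palmitic acid against none. The groups here rest on the titles. No dose or exposure time is stated in the labels. The cells are 1 line and nothing ties each replicate to a culture of its own, so a p-value here reflects the spread among these libraries, which may be technical.

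The proteasome degrades proteins that carry ubiquitin chains. Its core is a barrel of stacked rings, with alpha subunits (PSMA genes) in the outer rings, where they gate the entry, and beta subunits (PSMB genes) in the inner rings, where PSMB5, PSMB6 and PSMB7 cut the protein chain. The cap sits on the barrel: its PSMC subunits form an ATPase ring that unfolds the substrate, and its PSMD subunits bind ubiquitin chains, remove them and hold the lid together. In endothelial and other cells, interferon induces PSMB8, PSMB9 and PSMB10, which replace the usual catalytic subunits. Transcription of the constitutive subunits can be raised together by the factor NFE2L1 when proteasome activity falls. This factor binds antioxidant response elements, and CCAAT boxes, bound by nuclear factor Y, are also known in several of these promoters.

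Promoters of 31 of the 36 members were listed in the RefSeq table (GRCh38.p14), as 37 sequences running from 250 bases before to 50 bases after a start site. PSMA7, PSMB1, PSMB6, PSMB7 and PSMD4 were not matched. The response element core TGACNNNGC, searched on both strands, was present in 9 of the 37 (24.3%), against 13.3% of all 35116 promoters in the table. These were promoters of 9 members, 2 of the core and 7 of the cap. The CCAAT box, searched as CCAAT on both strands, was present in 17 of the 37 (45.9%), against 34.6% of all promoters. The 3 promoters below are shown because each held both motifs, in capitals, within 1 listed sequence. PSMC5 also had both, but in different listed promoters, and is not shown. CCAAT on the reverse strand reads ATTGG, the second response element core of PSMD3 is on the reverse strand, and no matches overlapped. They lie at chr15:78540536-78540835 (PSMA4), chr17:38752491-38752790 (PSMB3) and chr17:39980557-39980856 (PSMD3), each on the plus strand of GRCh38.p14.
PSMA4: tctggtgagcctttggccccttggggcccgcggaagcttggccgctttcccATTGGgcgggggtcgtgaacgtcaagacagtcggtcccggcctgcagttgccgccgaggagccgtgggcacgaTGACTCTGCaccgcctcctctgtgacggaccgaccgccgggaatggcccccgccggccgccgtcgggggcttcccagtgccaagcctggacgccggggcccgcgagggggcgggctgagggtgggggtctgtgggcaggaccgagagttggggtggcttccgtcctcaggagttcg
PSMB3: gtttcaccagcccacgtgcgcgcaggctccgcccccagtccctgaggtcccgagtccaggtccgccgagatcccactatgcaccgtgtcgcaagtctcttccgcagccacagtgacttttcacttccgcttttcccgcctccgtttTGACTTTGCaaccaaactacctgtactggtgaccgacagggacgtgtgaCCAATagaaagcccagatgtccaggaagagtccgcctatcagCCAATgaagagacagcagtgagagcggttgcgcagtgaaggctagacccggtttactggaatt
PSMD3: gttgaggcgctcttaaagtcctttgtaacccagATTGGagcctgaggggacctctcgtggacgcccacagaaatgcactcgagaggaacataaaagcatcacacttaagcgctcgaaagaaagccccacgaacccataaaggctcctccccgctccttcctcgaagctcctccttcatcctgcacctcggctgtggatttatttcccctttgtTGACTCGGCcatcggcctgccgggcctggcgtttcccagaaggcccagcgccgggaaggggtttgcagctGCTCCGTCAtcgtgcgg
A match describes these letters only and is not evidence of binding.

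Levels are given as FPKM, fragments per kilobase of gene scaled to each library's total of assigned reads. Recovered depth was 33421051 to 39899258 reads per library, and 10609 to 10959 genes reached 1 FPKM. The endothelial label was checked on 8 marker genes. Of these, 7 reached a mean of 1 FPKM, PECAM1 and CDH5 among them at 42.3 and 127 FPKM, while VWF (von Willebrand factor) was low at 0.296 FPKM. None of the 10 leukocyte, epithelial, fibroblast and smooth muscle markers reached 1 FPKM, and their sums per list stayed at or below 0.253 FPKM in estradiol and 0.325 FPKM in control libraries. Estradiol replicate 4 and control replicate 3 stood apart from the other 6 libraries. Over the tested genes (a description across genes, which share these libraries), each library's departure from the 8-library median was ranked against transcript GC content, with a Spearman coefficient of -0.861 in estradiol replicate 4 and -0.880 in control replicate 3, against -0.348 to 0.663 in the other 6. Results that rest on these libraries are given with and without them.

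Of the 36 members, 34 passed the filter of a mean of 1 FPKM over the 8 libraries, with 1573 to 25645 reads per gene and library. Those that did not were PSMA8 and PSMB11, which encode the subunits restricted to male germ cells and to the thymus. PSMA8 had 1 read in control replicate 4 and 0 reads in the other 7 libraries, and PSMB11 had 1 read in estradiol replicate 1, 1 read in control replicate 2 and 0 in the other 6. A count of 0 allows up to 3 reads, or 0.0400 to 0.0478 FPKM for PSMA8 and 0.0407 to 0.0485 FPKM for PSMB11, so no fold is given (exact two-sided permutation p = 1 for each). Their paralogues PSMA7 and PSMB5 averaged 271 and 103 FPKM.

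Subunits that are present in equal copies in the alpha ring had unequal transcript levels. PSMA7, an alpha subunit, was the highest member in every library, at 285, 299, 268 and 227 FPKM in estradiol replicates 1 to 4, against 292, 279, 233 and 284 FPKM in control replicates 1 to 4. PSMA5, also of the alpha ring, had the lowest mean of the 7, with 34.8, 36.2, 36.9 and 31.5 FPKM with estradiol, against 29.9, 35.6, 33.5 and 35.7 FPKM in controls. The highest alpha subunit thus stood 7.91-fold above the lowest in mean FPKM. The libraries of PSMA5 overlapped with those of PSMA4, next in order, and PSMA4 was the lower in 4 of the 8, estradiol replicates 2 and 3 and control replicates 2 and 4, so the order of these neighbours is not settled. Between them lay PSMA1 (142 FPKM), PSMA3 (116), PSMA2 (73.6), PSMA6 (43.0) and PSMA4 (37.5). Across the 7 tested alpha subunits the coefficient of variation of FPKM within a library was 67.6% to 93.9% in estradiol and 67.5% to 95.2% in control libraries. Its lowest value in each group was in the library that stood apart.

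The beta ring was higher than the alpha ring in mean log2(FPKM + 1) in each of the 8 libraries, and its members were less uneven. PSMB7, the trypsin-like catalytic subunit, led at 233, 250.5, 232 and 168 FPKM in the estradiol libraries, against 213, 221, 189.7 and 234 FPKM in the control libraries. PSMB6, the caspase-like subunit, had 137, 128, 128 and 93.3 FPKM with estradiol, against 136, 127, 97.9 and 129 FPKM in controls. PSMB5, the chymotrypsin-like subunit, had 109, 113, 105 and 81.5 FPKM with estradiol, against 107, 109, 87.2 and 112 FPKM in controls. In each of these catalytic genes the lowest library of the group was estradiol replicate 4 or control replicate 3, and the groups overlapped. The structural beta subunits PSMB4, PSMB1 and PSMB3 averaged 188, 149 and 82.7 FPKM, and PSMB2 was the lowest at 31.0 FPKM. The coefficient of variation over the beta ring was 49.3% to 53.5% in estradiol and 46.5% to 51.7% in control libraries.

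Cap transcripts were lower than core transcripts in median level. The median over cap members was 65.5 ± 1.98 FPKM in estradiol and 64.2 ± 2.30 FPKM in control libraries, and over core members 103 ± 7.16 FPKM in estradiol and 105 ± 6.03 FPKM in control libraries (SD, n = 4 each). The difference between core and cap held in each of the 8 libraries. Within the cap, the ATPase subunits ran from PSMC3, at 97.7 FPKM, through PSMC5 (77.5), PSMC4 (71.9), PSMC2 (46.1) and PSMC6 (32.8) to PSMC1, at 30.9 FPKM. PSMD2, a large scaffold subunit of the cap base, was the highest cap member in every library, at 217, 215, 209.8 and 144 FPKM with estradiol, against 195, 209, 157 and 212 FPKM in controls. Its partner PSMD1 averaged 55.6 FPKM. PSMD4, a ubiquitin receptor, averaged 88.4 FPKM and PSMD14, the deubiquitinase of the lid, 104 FPKM. Other lid subunits spanned 30.4 FPKM (PSMD12) to 116 FPKM (PSMD8), with PSMD13 at 106, PSMD7 at 105, PSMD3 at 81.7, PSMD6 at 58.5 and PSMD11 at 45.3 FPKM. PSMD5, PSMD9 and PSMD10 are named as cap genes but encode assembly chaperones that leave the finished cap, and they averaged 16.3, 19.3 and 45.3 FPKM. Without these chaperones the median of the cap members' mean FPKM was 77.5, against 65.2 with them and 109.6 in the core.

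**Figure D1:**
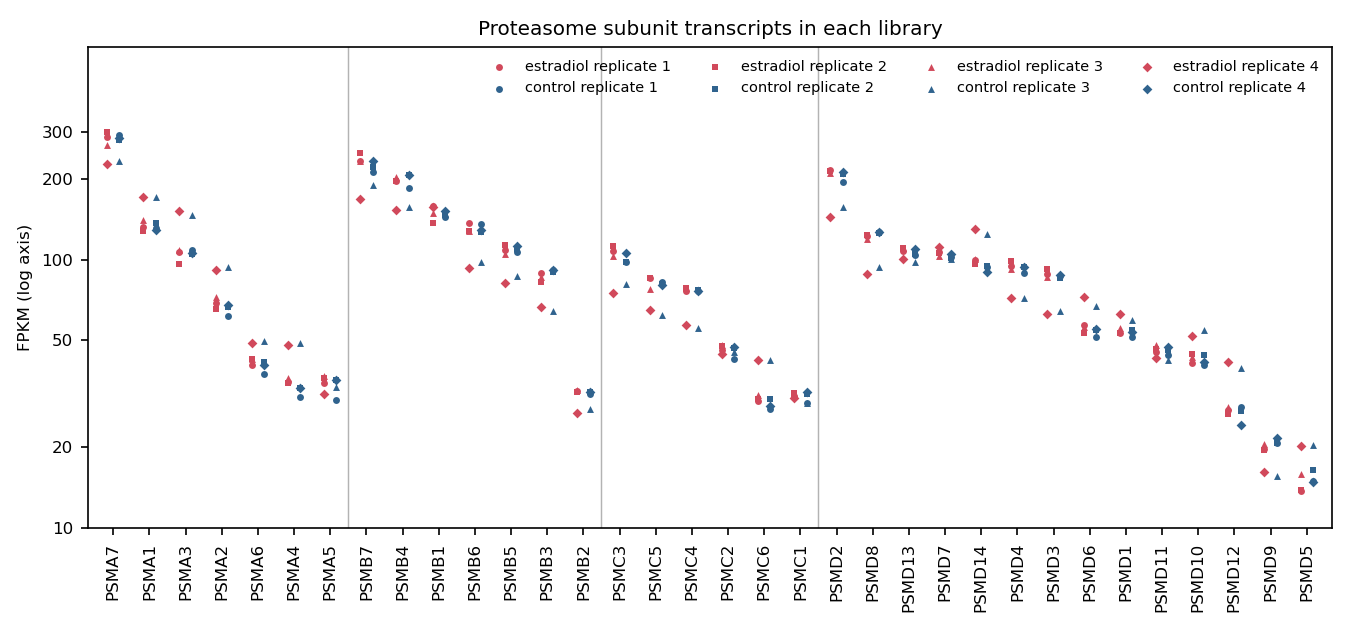
FPKM on a log axis of the 34 members above the filter, ordered by mean level within the PSMA, PSMB, PSMC and PSMD groups. Each point is a library (red estradiol, blue control). By mean, PSMA7 is highest and PSMD5 lowest, and estradiol replicate 4 and control replicate 3 sit apart from the others for most genes.

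The order of levels depended in part on the gene length behind the FPKM. The lengths recovered from the table were set beside 1 principal transcript of GENCODE 29 for each gene, a choice made after seeing the data. On that length, 3 members moved by over 1.5-fold. PSMA6 was at 119.9 FPKM in place of 43.0, PSMC6 at 55.3 in place of 32.8 and PSMB2 at 52.0 in place of 31.0. The spread of the alpha ring was 7.47-fold, with PSMA5 again lowest by mean. Median levels were 117 FPKM in the core and 79.7 FPKM in the cap, against 109.6 and 65.2 FPKM on the deposited lengths. Which transcripts these cells use was not measured.

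**Figure D2:**
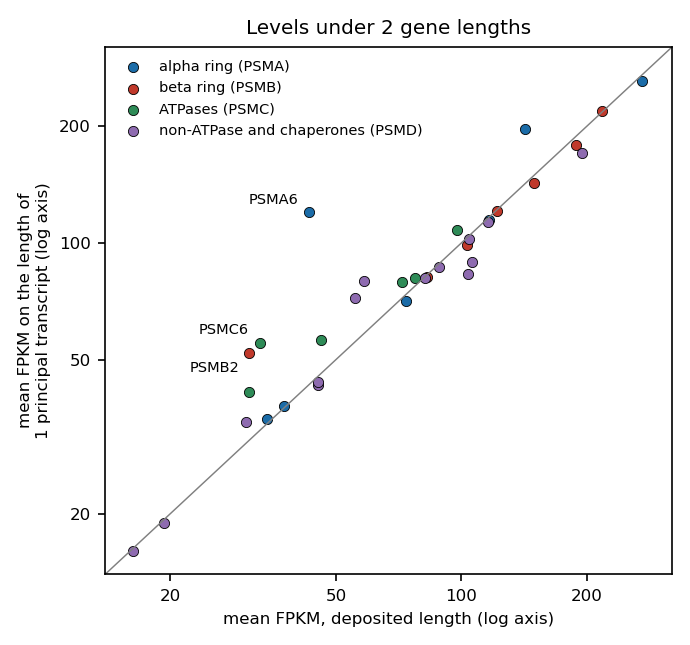
Mean FPKM over 8 libraries on the deposited gene length (horizontal, log axis) against the same reads on 1 principal transcript (vertical, log axis), for 34 members by subunit group. The line marks equal values. The 3 labelled genes moved by over 1.5-fold.

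Estradiol against control was tested with limma on log2(FPKM + 1) over 10720 genes. No member passed: 0 of 34 had a Benjamini-Hochberg adjusted p under 0.05 over all genes, where 0% of all genes did, and each member had an adjusted p of 0.999989. Counted without adjustment, 0 of 34 were under 0.05, against 0.243% of all genes (26 genes). The estradiol and control ranges overlapped for all 34. Over all genes, 0.308% had every estradiol library above every control, 0.224% had every one below, and 0.532% had groups that did not overlap in either direction. The 95% intervals of the members' log2 fold changes lay between -0.39 and 0.45, with a median half-width of 0.28. The intervals show the sizes of change that this fit leaves possible for each member. They include the spread that estradiol replicate 4 and control replicate 3 bring. The median SE of the members was 0.127 in this fit and 0.050 in the fit without these libraries.

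Among core members, the fitted log2 fold change was positive for 7 of 14, against 49.5% of all genes tested. The median was 0.0044 and the range -0.045 to 0.085, beside a median of -0.00047 over all genes. In the alpha ring 5 of 7 were positive (median 0.048) and in the beta ring 2 of 7 (median -0.010). Without estradiol replicate 4 and control replicate 3 these were 5 of 7 (median 0.075) and 4 of 7 (median 0.0051), and the difference between the rings was not tested. PSMA4, an alpha subunit, had the highest core value (0.085 ± 0.16 SE), at 35.1, 34.6, 36.2 and 48.0 FPKM with estradiol, against 30.9, 33.2, 48.7 and 33.2 FPKM in controls. It also had the smallest unadjusted limma p of the core, 0.604. PSMA5 (0.048 ± 0.093 SE) and PSMA6 (0.053 ± 0.11 SE) followed in order of p. PSMB3 had the lowest core value (-0.045 ± 0.14 SE), at 89.4, 82.7, 86.3 and 66.5 FPKM with estradiol, against 91.2, 90.2, 64.2 and 91.2 FPKM in controls. The catalytic subunits stood at 0.033 ± 0.13 (PSMB7), -0.013 ± 0.15 (PSMB6) and -0.030 ± 0.13 (PSMB5), all log2 fold changes with their SE. PSMA7 stood at -0.014 ± 0.11 and PSMB2 at -0.00037 ± 0.096 on the same scale.

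Among cap members, the log2 fold change was positive for 17 of 20, against 49.5% of all genes tested. The median was 0.034, beside -0.00047 over all genes, with a range of -0.067 to 0.085 and 0 past the threshold. All 6 ATPase genes had a positive value, from 0.021 to 0.058. PSMC3, the highest of them in level, had 108, 113, 103 and 74.9 FPKM with estradiol, against 97.6, 97.9, 81.5 and 106 FPKM in controls (log2 fold change 0.045 ± 0.14 SE). The lowest, PSMC1, had 31.0, 32.0, 31.9 and 30.4 FPKM with estradiol, against 29.2, 31.5, 29.2 and 32.2 FPKM in controls (0.038 ± 0.077 SE). Negative values were found for PSMD5, PSMD9 and PSMD8, of which the first pair are assembly chaperones. Without PSMD5, PSMD9 and PSMD10, 16 of 17 were positive, with a median of 0.037. The members share libraries and shift with them, some up and some down, so these counts are not independent votes.

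PSMD7, a lid subunit, had the smallest unadjusted p of all members (0.420 by limma), with a log2 fold change of 0.062 ± 0.073 SE. Its levels were 107, 106, 104 and 111 FPKM with estradiol, against 102, 101, 101 and 105 FPKM in controls, and estradiol replicate 3 lay below control replicate 4. PSMD14 had the highest cap value (0.085 ± 0.13 SE), at 99.98, 96.6, 100.3 and 130.3 FPKM with estradiol, against 93.8, 94.8, 125 and 89.7 FPKM in controls. PSMD13 came after it in order of p, at 0.046 ± 0.079 SE. PSMD5 had the lowest value (-0.067 ± 0.14 SE), at 13.7, 13.9, 15.9 and 20.3 FPKM with estradiol, against 15.0, 16.5, 20.4 and 14.8 FPKM in controls. PSMD2 stood at 0.013 ± 0.15 SE.

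**Figure D3:**
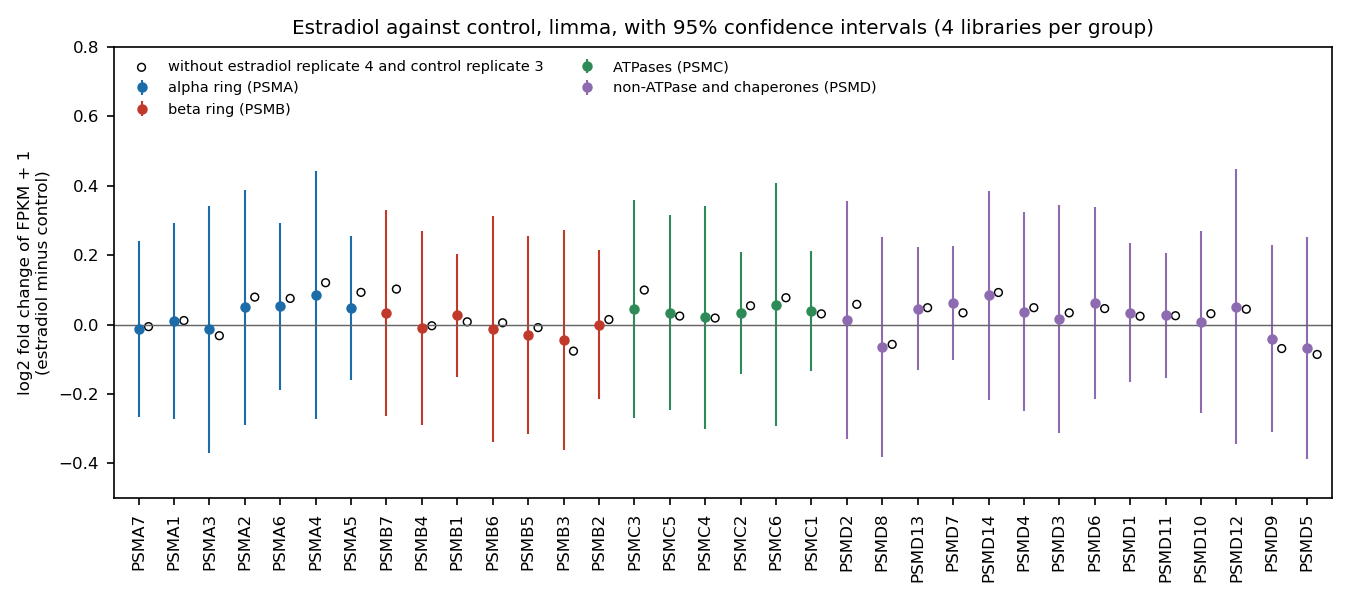
Log2 fold change of FPKM + 1 (estradiol minus control) of 34 members, filled points with 95% confidence intervals from limma on 8 libraries, coloured by subunit group. Open circles are the values without estradiol replicate 4 and control replicate 3. Every interval includes 0, and the cap members lie mostly just above it.

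Core and cap were compared within each library as the mean log2(FPKM + 1) of the 14 tested core members minus that of the 20 cap members. This difference was 0.65, 0.61, 0.64 and 0.62 in estradiol replicates 1 to 4, against 0.62, 0.63, 0.66 and 0.65 in control replicates 1 to 4. The means were 0.63 ± 0.018 with estradiol and 0.64 ± 0.019 in controls (SD, n = 4 each), a difference of -0.012 that was smaller than the spread in either group, and the groups overlapped. Without estradiol replicate 4 and control replicate 3 this difference between the group means was -0.0016. No p is given, because it is a score over chosen members. Core members took 0.467 ± 0.00741% of summed FPKM in estradiol and 0.465 ± 0.00321% in control libraries. Cap members took 0.416 ± 0.00952% of summed FPKM in estradiol and 0.407 ± 0.00691% in control libraries (SD, n = 4 each). FPKM is scaled to each library's total, so these shares show neither cell number nor the amount of RNA per cell.

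A pair of libraries, 1 from each group, stood apart from the other 6 for most members. Of the 34 members, 12 were higher in both estradiol replicate 4 and control replicate 3 than in any of the other 6 libraries, and 17 were lower in both. Over all genes tested these shares were 34.6% and 43.9%. The split ran through the core. PSMA1, PSMA2, PSMA3, PSMA4 and PSMA6 were higher in the pair and PSMA7 lower, while 6 of 7 beta subunits were lower and PSMB1 lay within the range of the others. The median alpha subunit stood 0.38 above the median of the other 6 libraries in estradiol replicate 4 and 0.37 above it in control replicate 3, on the log2 scale. The median beta subunit stood at -0.42 in estradiol replicate 4 and at -0.32 in control replicate 3. In the other 6 libraries the medians lay between -0.12 and 0.059 for the alpha and between -0.027 and 0.022 for the beta ring. In the cap, PSMC6, PSMD1, PSMD5, PSMD6, PSMD10, PSMD12 and PSMD14 were higher in the pair, and 10 members were lower, among them PSMC3, PSMC4, PSMC5 and PSMD2. The median ATPase gene stood at -0.20 in estradiol replicate 4 and at -0.23 in control replicate 3, and the median PSMD gene at -0.0018 and -0.089 in these libraries. The remaining 5 members were PSMA5, PSMB1 and PSMC2, within the range of the other 6 in both libraries, PSMC1, just under it in control replicate 3, and PSMD7, above it in estradiol replicate 4 and below it in control replicate 3.

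**Figure D4:**
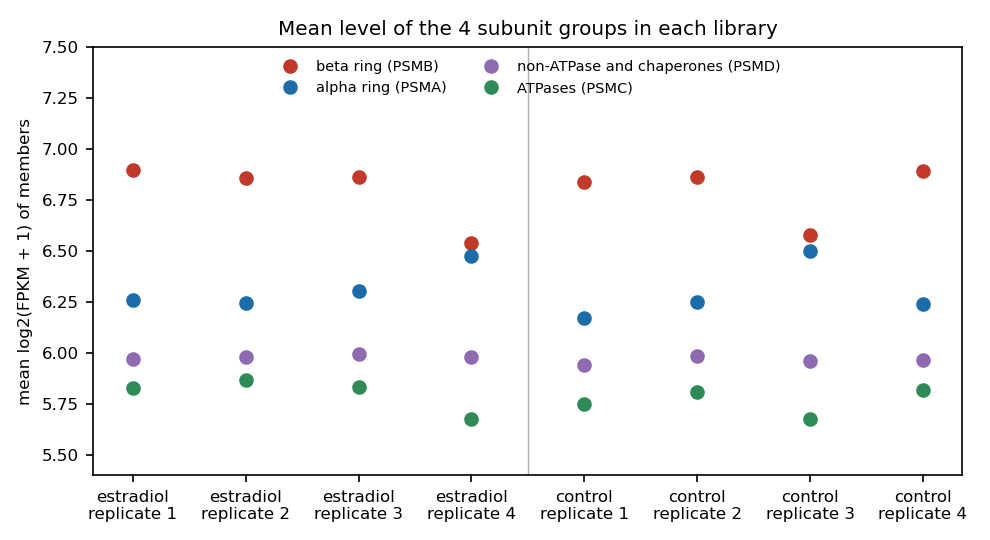
Mean log2(FPKM + 1) of the tested members of each subunit group (vertical) in each library (horizontal). The beta and alpha means lie at 6.54 and 6.48 in estradiol replicate 4 and at 6.58 and 6.50 in control replicate 3, closer together than in the other 6 libraries.

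Transcript GC content moved with this split. It was 36.8% to 46.5% (median 41.8%) for the 12 members that were higher in the pair and 46.4% to 58.6% (median 53.1%) for the 17 that were lower. The median GC content was 42.1% in the alpha ring, 51.8% in the beta ring, 50.4% for the ATPases and 47.2% for the PSMD genes. PSMA5 and PSMC2 were exceptions, with 37.2% and 38.5% GC and levels in both libraries of the pair within the range of the other 6. The rank correlation of the members' deviation with GC content was -0.855 in estradiol replicate 4 and -0.882 in control replicate 3, over 34 genes that share these libraries. What set these libraries apart was not tested. In the 6 libraries without the pair, the coefficient of variation of a member across libraries had a median of 3.80% (0.992% to 7.23%), against 12.1% (3.31% to 21.0%) over all 8.

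**Figure D5:**
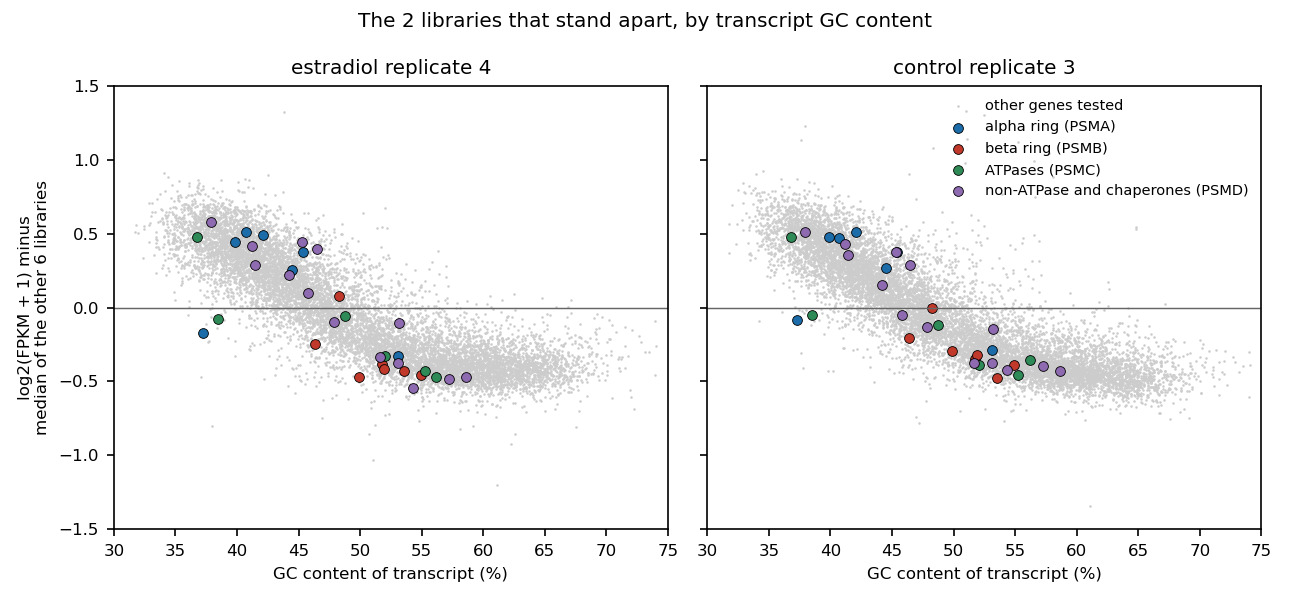
Log2(FPKM + 1) minus the median of the other 6 libraries (vertical) against GC content of the principal transcript in percent (horizontal), for estradiol replicate 4 (left) and control replicate 3 (right). The grey points are the other genes tested and coloured points the 34 members, which fall with GC as the other genes do, apart from PSMA5 and PSMC2 at low GC.

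Without the pair, 3 estradiol libraries were set against 3 control libraries. Again 0 of 34 members passed (smallest adjusted p 0.992 by limma), where 0% of all genes did. PSMA4 had an unadjusted p of 0.0352 by limma, with a log2 fold change of 0.12, and it was 1 of 34 members under 0.05 where 3.88% of all genes were. The log2 fold change was positive in 9 of 14 core members (median 0.0098) and in 17 of 20 cap members (median 0.034), against 48.1% of all genes (median -0.0034). All 6 ATPase genes were positive here too. PSMB7 and PSMC3 stood at 0.10 each, PSMD14 at 0.092 and PSMD7 at 0.034. After subtracting each library's trend with GC content over all 8, 6 of 14 core and 16 of 20 cap members were positive, with medians of -0.0025 and 0.035. In that fit 5224 of all 10250 genes were positive, with a median of 0.0011.

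Genes that work with the subunits were read from lists drawn up with earlier results of these data known. In all 7 lists, 0 genes had an adjusted p under 0.05 and 0 an unadjusted p under 0.05 by limma over all 8 libraries. Over all genes tested these shares were 0% and 0.243%, and 49.5% had a positive log2 fold change. The groups overlapped for every listed gene, where 0.532% of all genes tested had groups that did not. The interferon-induced subunits PSMB8, PSMB9 and PSMB10 averaged 16.0, 3.56 and 8.71 FPKM. Their mean was 6.40 ± 0.252% of that of PSMB5, PSMB6 and PSMB7 with estradiol and 6.35 ± 0.221% in controls (SD, n = 4 each). By limma, 2 of the 3 had a positive log2 fold change, and PSMB9 (0.11 ± 0.14 SE) and PSMB10 (0.023 ± 0.14 SE) had the smallest p. PSMB9 had 4.49, 4.26, 3.95 and 2.41 FPKM with estradiol, against 3.68, 3.39, 3.20 and 3.13 FPKM in controls, so that estradiol replicates 1 to 3 were above every control and estradiol replicate 4 was below them all. Without the pair its log2 fold change was 0.25 (unadjusted p = 0.0058, adjusted p = 0.992 by limma). In that fit 3.88% of all genes had an unadjusted p under 0.05. PSMB9 was singled out here after its values were seen.

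Activators, chaperones and cap partners gave 0 calls as well. In the list of core activators and the inhibitor PSMF1, 3 of 5 were positive (median 0.035), and PSME3, a nuclear activator, and PSME1, an interferon-induced one, had the smallest p (0.063 ± 0.081 and -0.082 ± 0.13 SE). Of the core assembly chaperones, 4 of 5 were tested and 3 were positive. POMP, the maturation factor of the beta ring, stood at 0.10 ± 0.17 SE and PSMG2 at 0.076 ± 0.15 SE. PSMG4 was under the filter at 0.557 ± 0.167 FPKM with estradiol and 0.603 ± 0.0915 FPKM in controls (SD, n = 4 each; exact two-sided permutation p = 0.629). Its recovered length was 10891 bases against 838 for the principal transcript, on which PSMG4 would stand at 7.54 FPKM, so its low level depends on the length used. Of the cap assembly chaperones, which hold PSMD5, PSMD9 and PSMD10 besides PAAF1, 2 of 4 were positive. Of the other cap subunits and bound enzymes, 5 of 6 were positive, led in p by UCHL5, a deubiquitinase (0.12 ± 0.16 SE), and SEM1, a small lid subunit (0.068 ± 0.11 SE). Without estradiol replicate 4 and control replicate 3, SEM1 stood at 0.17 (unadjusted p = 0.0217, adjusted p = 0.992 by limma). In that fit 3.88% of all genes had an unadjusted p under 0.05. PSMB9 and SEM1 were the only genes of the related lists under it.

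Transcription factors of proteasome genes and genes of the ubiquitin system also gave 0 calls. NFE2L1, the activator of proteasome genes, averaged 147 ± 17.1 FPKM with estradiol and 149.8 ± 18.7 FPKM in controls (SD, n = 4 each). In its list, which adds NFE2L2, DDI2, NGLY1 and the nuclear factor Y subunits, 4 of 7 were positive (median 0.0059), and NFYB and NFYC had the smallest p (0.073 ± 0.17 and 0.040 ± 0.14 SE). Of 13 genes of ubiquitin supply and delivery, 6 were positive (median -0.0022). UBQLN2, a shuttle factor, had 7.66 ± 0.457 FPKM with estradiol and 8.46 ± 0.592 FPKM in controls (SD, n = 4 each), at a log2 fold change of -0.13 ± 0.083 SE (adjusted p = 0.999989 by limma). UFD1, a cofactor of the segregase VCP, stood at 0.064 ± 0.13 SE.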

How the data were processed

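Transcript levels of 8 libraries were analysed, 4 with estradiol and 4 control, grouped by the sample titles. The authors deposited these levels as FPKM in 1 table of genes by libraries. The submitters' processing notes name fastp 0.20.1 and HTSeq; aligner, genome build, annotation and strand setting were not given in the sources used here. FPKM steps were whole multiples of 1 read, so reads, gene lengths and library totals were recovered from them, and 100% of 152348 values above 0 were rebuilt within a relative tolerance of 1e-06. A factor shared by a gene's length and all its reads cannot be seen this way. Floors cover counting error only. The limma intervals rest on the spread among these libraries.

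Values were tested as log2(FPKM + 1) with limma 3.58.1 (R 4.3.3, trended prior variance, two-sided). The 10720 genes averaging 1 FPKM or more were fitted, and p was adjusted over all of them. This scale understates the change of low genes. Members under the filter got an exact permutation test over 70 relabellings, whose smallest p is 0.0286. The fit and the read recovery were tested on simulated data. GC content and 1 principal transcript per gene came from GENCODE 29, by gene name, for all 36 members and 95.62% of the genes tested; promoters came from the RefSeq table. GENCODE 29 lists pseudogenes of 11 members, and how reads that fit both were counted is not given. Members and gene lists were chosen with earlier results of these data known. Described in full were the catalytic subunits, the highest and lowest of each letter group, the largest and smallest change and the 3 smallest p of core and cap, PSMA8 and PSMB11 with their paralogues, and the 2 smallest p of each other list. Alternatives were another pseudocount, filter, scaling or variance model, the replicate block, GC removal, limma-voom on recovered reads, and fits without single libraries or the pair that stood apart. Python 3.11.15 with numpy 2.4.6, pandas 2.3.3 and matplotlib 3.10.9 was used for other steps.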

Additional observations from a re-analysis of the deposited data

Results flagged for a closer look

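In 19 of the 68 groups of 4 libraries checked (34 members, estradiol and control), 1 library lay far from the other 3: its gap to the nearest was over 0.829 of the group's range, which chance gives in about 1 in 20 groups. In each of the 19 it was estradiol replicate 4 or control replicate 3, and the members are not independent. Estradiol replicate 4 was high, in FPKM with the nearest other estradiol library beside it, for PSMA4 (48.0, nearest 36.2), PSMC6 (42.2, nearest 31.4), PSMD12 (41.6, nearest 28.1) and PSMD14 (130.3, nearest 100.3). It was low for PSMB2 (26.9, nearest 32.0), PSMB4 (153, nearest 196), PSMC4 (56.8, nearest 76.2), PSMD2 (144, nearest 209.8) and PSMD8 (88.5, nearest 119). Control replicate 3 was high, beside the nearest other control library, for PSMA3 (147, nearest 108), PSMA4 (48.7, nearest 33.2) and PSMD14 (125, nearest 94.8). It was low for PSMB2 (27.8, nearest 31.7), PSMB3 (64.2, nearest 90.2), PSMC4 (55.7, nearest 76.4), PSMC5 (62.2, nearest 80.3), PSMD3 (64.5, nearest 85.5), PSMD8 (94.0, nearest 125) and PSMD9 (15.7, nearest 20.7).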

How the results depend on the processing

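No member and no other gene had an adjusted p under 0.05 in any of 19 other fits (11 other settings and 8 with 1 library left out); the genes at an unadjusted p under 0.05 numbered 26 in limma as reported, 23 by limma-voom, 11 with the replicate block, 4 with a filter at 5 FPKM, 437 with no filter, 416 without the pair, 351 with a term for it, 269 with GC removed, and 15 to 183 with 1 library left out. The core and cap medians and their difference moved by less than the spread between libraries in all 19. The directions of single members were not stable. With 1 library left out, 13 of the 16 tested members described in full changed sign at least once, with log2 fold changes from -0.023 to 0.23 for PSMA4, -0.0068 to 0.094 for PSMA5, -0.0024 to 0.13 for PSMA6, -0.087 to 0.067 for PSMA7, -0.050 to 0.064 for PSMB2, -0.17 to 0.047 for PSMB3, -0.11 to 0.073 for PSMB5, -0.12 to 0.11 for PSMB6, -0.033 to 0.16 for PSMB7, -0.030 to 0.17 for PSMC3, -0.013 to 0.19 for PSMD14, -0.083 to 0.15 for PSMD2 and -0.18 to 0.028 for PSMD5. PSMC1, PSMD7 and PSMD13 did not change sign. The extremes came mostly without control replicate 3 or estradiol replicate 4; PSMA5 was lowest without control replicate 1 and PSMB7 without estradiol replicate 2. Over the same fits 18 to 27 of the 34 members were positive. The core median was -0.0023 to 0.055 and the cap median 0.015 to 0.052. Of the other settings, PSMB2 turned to 0.0024 with median-of-ratios size factors and to 0.014 without the pair, and PSMB6 to 0.0051 without the pair; the cause was not tested. Same-numbered libraries correlated at 0.62, 0.073, -0.48 and -0.74. The library that stood apart has a different number in each group, so these values cannot show whether the numbers pair the samples. With the replicate block the calls stayed at 0 and the core median at 0.0044. Depth limits PSMA8 and PSMB11, with at most 1 read per library; the 34 tested members had at least 1573. All listed alternatives were run.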

Other observations

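Rows of transcripts beside members were read after seeing the values. PSMA3-AS1, the antisense neighbour of PSMA3, had 10.2, 8.74, 9.98 and 15.5 FPKM in estradiol replicates 1 to 4, against 10.1, 9.35, 13.5 and 8.67 FPKM in control replicates 1 to 4, and was highest in the same pair of libraries as PSMA3. Without a known strand setting, reads of the neighbours cannot be told apart. Of all genes tested, 34.6% were higher in both estradiol replicate 4 and control replicate 3 than in any of the other 6 libraries. PSMD6-AS2 had 0.550, 1.29, 0.837 and 1.23 FPKM with estradiol, against 0.917, 0.622, 1.21 and 0.796 FPKM in controls.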
